A study of Homo sapiens with 6 samples.

Results

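The row listed as hsa-mir-6723 held more estimated counts than any other of the 57150 rows, in both columns of the expression table. By its gene identifier, ENSG00000237973, it is MTCO1P12 in the reference annotation, a nuclear copy of MT-CO1, which encodes a catalytic subunit of cytochrome c oxidase. It was chosen by its counts, together with every row whose symbol starts with MT-, the prefix of genes on the mitochondrial genome. The rule gave 1 row of 57150, because 0 symbols began with MT- in the table used here, and transcripts of the mitochondrial genome itself are not analysed here. The values given here are those of rows annotated as nuclear copies of mitochondrial genes, and which genome the reads came from was not tested. The counts of hsa-mir-6723 are what chose it and are given as a description.

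By the sample labels the cells were K562, a human leukemia line. The groups were 3 pools transfected with siRNAs against both αCP1 and αCP2, poly(C)-binding proteins encoded by PCBP1 and PCBP2, and 3 pools that received control siRNAs, all harvested after 72 hours. More than a single siRNA was used within each group, and all cells are labelled as 1 line. The paper describes control siRNAs against an unrelated mRNA, GLD-2, and a non-targeting control. In both groups, some samples came from the authors' earlier study of 3′ processing and the rest were additional. TruSeq libraries were sequenced as 100 nt paired-end reads. The table has a KD and a CTRL column for these groups, and each gene has 1 FPKM value (fragments per kilobase of transcript and 1000000 fragments) and 1 estimated count in either, so there is no spread between replicates and no test was run. The 95% intervals are exact binomial ones, cover at most counting error, and treat the estimated counts as whole fragments. Each column's total of counts is below the number of mapped pairs that the paper lists for any single library. Why was not tested, and if the counts were scaled or combined, the intervals do not measure counting error.

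The columns are called by their labels because FPKM did not show both targeted mRNAs lower under KD. PCBP1 was nearly the same, at 184.1 under KD against 187.8, and PCBP2 was higher, at 530.8 against 342.4. The direction of every ratio given here rests on those labels. Of 15 erythroid genes, which mark the K562 lineage, 9 were at 0 in both columns and 1 was over 5 in both. Their summed FPKM was 161.6 under KD and 43.4 under CTRL, and the highest single values were 152.9 and 35.4. Of 8 epithelial genes, 5 were over 5 in both columns, with a summed FPKM of 4426 and 3258. Whether the columns hold the labelled cells was not tested with these values.

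The mitochondrial genome is a small circular DNA that encodes core subunits of respiratory complexes I, III, IV and V, with the rRNAs and tRNAs needed to translate them. Its mRNAs are polyadenylated and abundant in most cells. During evolution, pieces of mitochondrial DNA have been inserted into chromosomes. Most such nuclear copies are old, have diverged in sequence and are annotated as pseudogenes. A recent insertion can still match the mitochondrial genome over the length of a sequencing read, and a read from such a stretch fits both places.

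MTCO1P12 lies on chromosome 1, chr1:566454-567996 on the plus strand of GRCh37, and is annotated as an unprocessed pseudogene of 1543 nt. The table places the row in a merged locus, chromosome 1 from 536815 to 755214 in hg19. The gene aligned with positions 5904 to 7445 of the mitochondrial genome, the whole of MT-CO1, with 20 substitutions and 1 gap base, an identity of 98.6%. Of the substitutions, 18 were transitions and 2 were transversions. The longest stretch without a difference was 243 nt, longer than a single read. The stretch of 100 nt with the most differences is printed beside its mitochondrial counterpart, to show how alike the most divergent read-sized part of the gene is. Capitals mark the 4 bases that differ.
MTCO1P12, chr1:566750-566849, plus strand: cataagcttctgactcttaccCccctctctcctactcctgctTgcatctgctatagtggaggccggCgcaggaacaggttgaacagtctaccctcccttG
Mitochondrial counterpart, chrM:6200-6299, plus strand: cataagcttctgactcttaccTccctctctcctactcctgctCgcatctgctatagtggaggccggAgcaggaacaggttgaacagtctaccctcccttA
With the mitochondrial base first and the leftmost base of each line as position 1, the changes are T22C, C43T, A67C and A100G. Across the gene there are 1444 windows of 100 nt. Of these, 27.8% occurred unchanged in the mitochondrial genome, and 95.8% occurred with at most 3 differences. The mapping allowed 3 mismatches per read. It also limited mismatches within a short seed stretch of the read, which was not applied here, and the differences counted here include gaps. The changes printed above thus stand in one of the few windows with more than 3 differences.

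The row listed as hsa-mir-6723 had 229973 counts under KD and 183395 under CTRL. These were 1.68% of all counts in the first column (95% interval 1.67% to 1.69%) and 1.57% in the second (1.56% to 1.58%). By counts it ranked 1 in each column, and by FPKM it ranked 7 in each. Its FPKM was 13428 under KD and 10739 under CTRL.

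The counts and FPKM values also show which annotated length the row was scaled to. For a gene with 1 transcript, the counts behind 1 unit of FPKM increase in a straight line with length. A line through 5 other copies of the same locus gave a length of 1543 nt for the row in each column, equal to the annotated length of MTCO1P12. The row is thus scaled to the length of the whole pseudogene, which does not show where its reads came from. Of 1436 rows with a microRNA symbol, 1411 were at 0 in both columns and 10 had a mean FPKM of at least 1. Only 1 of those 10 was typed as a microRNA in the reference. After hsa-mir-6723, the highest of these rows was one listed as MIR4461, identifier ENSG00000198868, which is MTND4LP30, a copy of the complex I subunit gene MT-ND4L.

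**Figure D1:**
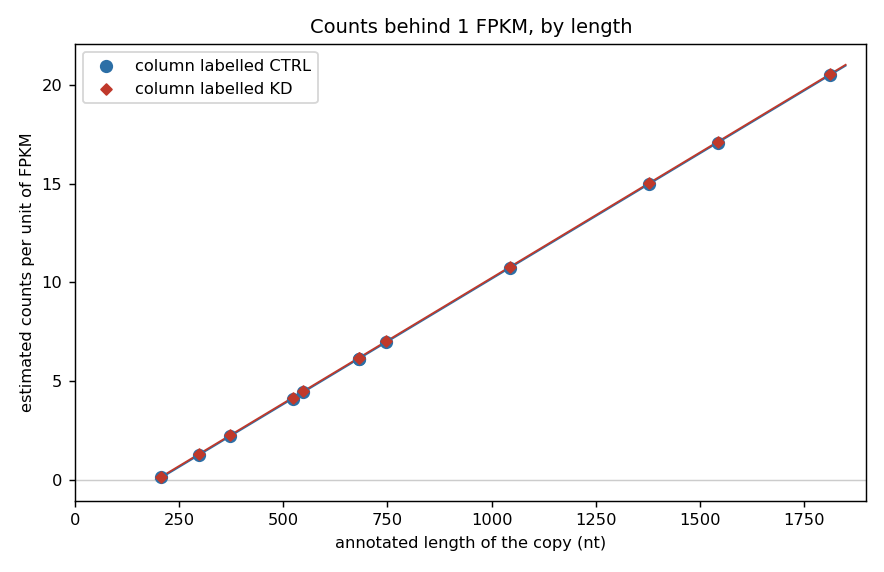
Estimated counts per unit of FPKM (vertical axis) against annotated length in nt (horizontal axis) for the copies on chromosomes 1 and 5 with an FPKM over 5 in a column. Circles and diamonds are the columns labelled CTRL and KD, and the lines were fitted to the 6 chromosome 1 copies of at least 300 nt. The lines of both columns nearly coincide, and meet 0 at 194 nt and 198 nt.

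The same lines show how the columns were scaled. Their slope gives the number of fragments that FPKM was divided by, which was 12693028 for KD and 12693058 for CTRL, while the counts summed to 13699340 for KD and 11680567 for CTRL. The points of the line departed from it by at most 0.000948%. FPKM of these copies was therefore not divided by each column's own total, and for the 6 copies of the line the log2 ratio of FPKM is nearly that of counts. Among 9536 genes with at least 100 counts in both columns, 48.3% had both log2 ratios within 0.05 of each other. For hsa-mir-6723 the log2 ratio of KD over CTRL was 0.32 for FPKM with 1 added, and 0.33 for counts. As a share of the column totals it was 0.10, with a 95% interval of 0.09 to 0.11. Both are small against the limit of 1 used for counts of genes: of 13741 genes whose FPKM averaged 1 or more over the columns, 8.51% were at 1 or above and 3.27% at -1 or below. The median of all these genes was 0.01 for FPKM and -0.21 for shares of the totals. On the scale of shares the balance turned, with 919 genes at 1 or above and 1326 at -1 or below.

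The neighbours of MTCO1P12 in the same stretch of chromosome 1 include other copies of mitochondrial genes, and they follow the order of the mitochondrial genome. The 7 copies span 5861 nt. MTND1P23 and MTND2P28 come from subunit genes of complex I, the NADH dehydrogenase. MTCO2P12 and MTCO3P12, listed as RP5-857K21.7 and RP5-857K21.11, come with MTCO1P12 from the cytochrome c oxidase genes. MTATP8P1 and MTATP6P1, which overlap by 46 nt, come from subunit genes of the ATP synthase. All 7 were among the 10 highest rows by FPKM in both columns. The other 16 rows of the merged locus had an FPKM of at most 1.78 under KD and 5.40 under CTRL.

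Levels within the cluster were unequal. MTATP8P1 had the highest FPKM, 60768 under KD and 60682 under CTRL. MTATP6P1 was at 29568 and 26698, MTCO2P12 at 33999.9 and 21239, and MTND1P23 at 27137 and 23762, so their order differed between the columns. MTCO3P12 followed at 24188 and 19853. MTCO1P12, the hsa-mir-6723 row, and MTND2P28 were the lowest, with MTND2P28 at 12480 and 9987. The hsa-mir-6723 row thus had the most counts of the 7 while it ranked 6 of 7 by FPKM. MTATP8P1 is 207 nt long, close to the length at which the fitted lines meet 0, and its FPKM rests on 10412 and 7808 counts. Per kilobase of annotated length and 1000000 counts, a scale chosen after the values were seen, it was lowest, at 3672 and 3229, and hsa-mir-6723 was at 10880 and 10175.5, rank 5 of 7.

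**Figure D2:**
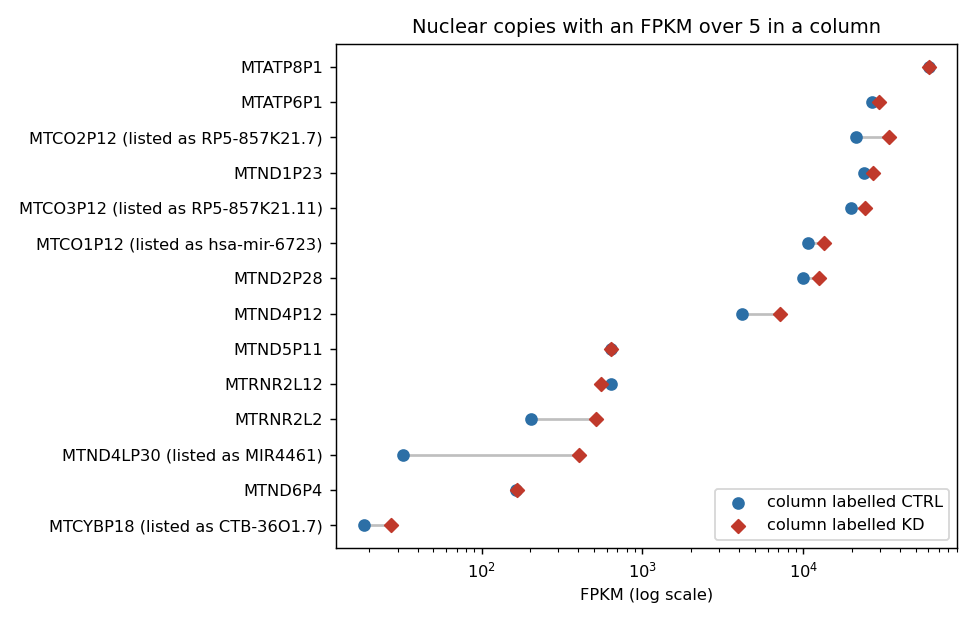
FPKM on a log scale (horizontal axis) of the 14 nuclear copies with an FPKM over 5 in a column, ordered by mean FPKM. Circles are the CTRL column and diamonds the KD column. The 7 copies of chromosome 1 are the highest, from 9987 to 60768, and MTND4LP30 shows the widest gap between columns.

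The 7 copies together held 938561 counts in the KD column, 6.85% of the total (95% interval 6.84% to 6.86%). In the CTRL column they held 733527 counts, 6.28% (6.27% to 6.29%). Of the summed FPKM, which weights short genes more, they held 16.9% under KD and 18.6% under CTRL, the opposite order. The hsa-mir-6723 row took 24.5% of the cluster's counts under KD and 25.0% under CTRL. Its place within the cluster was therefore much the same in both columns, although no replicate value bears on the difference.

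Ratios between the columns differed among neighbours of near-equal identity. MTCO2P12 had 210725 and 130584 counts and a log2 FPKM ratio of 0.68, the highest of the 7. MTND2P28 was at 0.32, as hsa-mir-6723 was, MTCO3P12 at 0.28, MTND1P23 at 0.19 and MTATP6P1 at 0.15. None of the 7 reached 1 in either direction. As shares of the column totals, the values were 0.46 for MTCO2P12 (95% interval 0.45 to 0.47), -0.07 for MTATP6P1 (-0.08 to -0.06) and -0.01 for MTND1P23 (-0.02 to 0.01). MTCO2P12 and MTATP6P1 thus lay on either side of hsa-mir-6723, and their intervals did not overlap with its own. These intervals cover at most counting error, so whether the copies differ beyond the spread between libraries was not tested. For MTATP8P1 the FPKM ratio was 0.00 but the count ratio was 0.42, because 1 unit of FPKM stood for 1.33 times as many counts in the KD column as in the CTRL column.

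**Figure D3:**
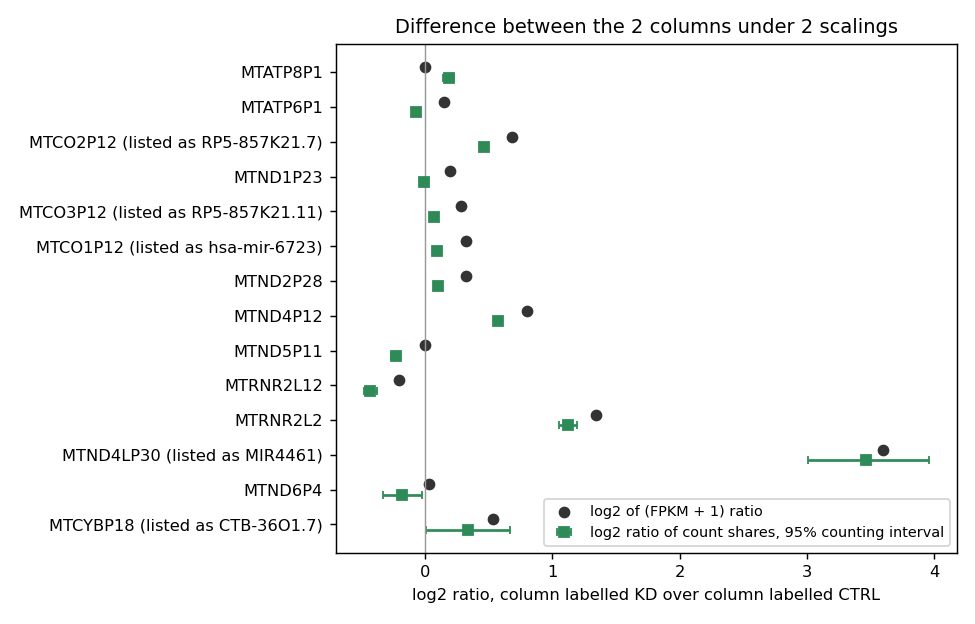
Log2 ratio of KD over CTRL (horizontal axis) for the 14 copies with an FPKM over 5 in a column. Circles use FPKM with 1 added, and squares use shares of the column totals with exact binomial 95% intervals. Squares lie to the left of circles for all copies except MTATP8P1, and MTND4LP30 stands apart at 3.60 and 3.47.

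A second cluster of copies lies on chromosome 5 and comes from the next part of the mitochondrial genome. MTND4P12, a copy of the complex I gene MT-ND4, had an FPKM of 7220 under KD and 4143 under CTRL, from 108446 and 62014 counts. Its log2 ratio was 0.80, and 0.58 as a share of the totals (95% interval 0.56 to 0.59). MTND5P11 was at 636.2 and 637.4, and MTND6P4, from the one complex I gene on the light strand, was at 166.3 and 162.5. MTCYBP18, listed as CTB-36O1.7 and a copy of the complex III gene MT-CYB, was at 27.2 and 18.5. These 3 copies were far below MTND4P12 in both columns.

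MTND4LP30, the row listed as MIR4461, had the widest difference between the columns among the copies with an FPKM over 5. Its FPKM was 405.1 under KD and 32.5 under CTRL, from 531.1 and 41 counts. The log2 ratio was 3.60, and 3.47 as a share of the totals (95% interval 3.01 to 3.96). The copy lies at chr5:134263720-134264016 on the minus strand, is 297 nt long and is 94.9% identical to the mitochondrial genome over positions 10470 to 10766. Its read-sized stretch with the most differences is printed to set it beside that of MTCO1P12, with the 6 differing bases in capitals.
MTND4LP30, chr5:134263816-134263915, minus strand: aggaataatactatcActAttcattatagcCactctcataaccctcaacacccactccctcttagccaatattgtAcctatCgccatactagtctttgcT
Mitochondrial counterpart, chrM:10571-10670, plus strand: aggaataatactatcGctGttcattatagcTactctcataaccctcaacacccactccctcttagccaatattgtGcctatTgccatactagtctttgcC
Only 10.1% of the windows of 100 nt in MTND4LP30 occurred in the mitochondrial genome with at most 3 differences, against 95.8% for MTCO1P12. The 5′ end of MTND4P12 overlaps MTND4LP30, so reads at the border can belong to either. The difference between columns rests on 41 counts in the lower one.

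Across the table, 403 rows were nuclear copies of mitochondrial mRNA or rRNA genes by their symbol or reference name. Of these, 332 were at 0 in both columns and 18 had a mean FPKM of at least 1. In 216 rows the listed symbol was not the name in the reference, as for hsa-mir-6723. A reference sequence was found for 394 copies. All 7 copies with an identity of at least 97% were those of chromosome 1, and their mean FPKM was between 11233 and 60725. The 14 copies with an identity from 90% to under 97% had a median of 1.04 and a range from 0 to 5681. Of the 34 copies between 80% and 90%, 29 were at 0 and the highest was at 0.436. Of the 339 copies under 80%, 293 were at 0 and the highest was at 1.02. High levels were thus found among the copies most like the mitochondrial genome.

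**Figure D4:**
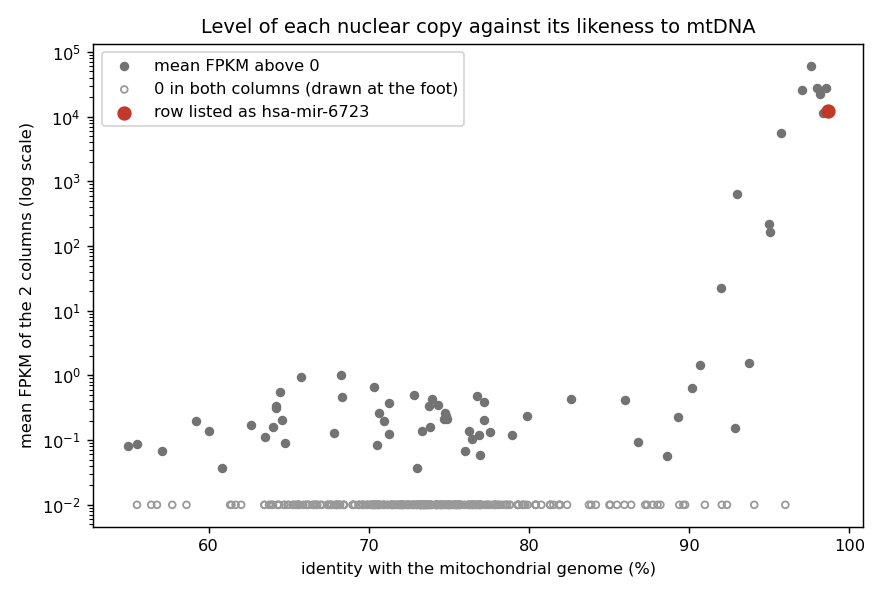
Mean FPKM of both columns on a log scale (vertical axis) against identity with the mitochondrial genome in percent (horizontal axis) for 394 nuclear copies. Filled points are copies above 0, open points are copies at 0 in both columns drawn at the foot of the axis, and the red point is the row listed as hsa-mir-6723. All copies above 10 have an identity over 90%.

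The same held gene by gene. Copies carry the names of 13 mitochondrial mRNA genes, and in 12 of these families a single copy had a mean FPKM of 10 or more. In all 12 that copy was also the one most like the mitochondrial genome. All 12 lie in the clusters on chromosome 1 and chromosome 5 described above, so the families are not separate observations. For MT-CO1 the family has 46 rows, of which 39 were at 0. The second highest after hsa-mir-6723 was MTCO1P29, with a mean FPKM of 0.436. The family with no copy at 10 was that of MT-ND3, a complex I gene, where 20 of 21 rows were at 0 and the highest identity was 89.6%. That copy, MTND3P25, lies beside MTND4LP30 on chromosome 5, aligned with positions 10269 to 10403 of the mitochondrial genome and was at 0 in both columns. It is 135 nt long, less than the 194 nt and 198 nt at which the fitted lines meet 0. Identity did not order the levels by itself. MTCO1P40, another copy of MT-CO1 that is listed as RP11-750B16.1 and was picked out after its value was seen, was at 0 in both columns with an identity of 96.0%. Altogether 5 copies had at least 1 window with at most 3 differences and a mean FPKM under 1. In turn, 0 of the 376 copies without such a window reached a mean FPKM of 10. The part of reads from mitochondrial transcripts in the counts of hsa-mir-6723 and the other copies was not tested.

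The copies named for the large mitochondrial rRNA, the MTRNR2L genes, include 2 at a mean FPKM of 10 or more. MTRNR2L12 was at 554.6 under KD and 640.5 under CTRL. MTRNR2L2 was at 515.7 and 203.2, from 5520 and 2165 counts, with a log2 ratio of 1.34. Both were lower than any copy of chromosome 1 by FPKM. Their sequences were not compared with the mitochondrial genome here. Of the 18 copies with a mean FPKM of at least 1, 15 had more than 3 counts in both columns. Among these, MTRNR2L2 and MTND4LP30 had a log2 ratio of at least 1, a limit passed by 8.51% of all genes. For 2 of the other copies no ratio is read. MTRNR2L9, with 12 and 0 counts, passed the filter on low values only through the KD column, and MTCO2P2 had 0 and 1 counts. The median log2 ratio was 0.28 over the 13 copies with at least 100 counts in each column.

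Nuclear genes for the other subunits of the respiratory chain had lower levels than the chromosome 1 copies. The 76 genes of the list, which was written with earlier results of these data known, had FPKM values from 16.9 to 2141 under KD and from 7.05 to 2745 under CTRL. Their median log2 ratio was 0.40, near the 0.32 of hsa-mir-6723, and as shares of the totals it was 0.17. Of the 76 genes, 18 were at 1 or more, against 8.51% of all genes, and 0 at -1 or less, against 3.27%. As shares of the totals 12 of the 76 were at 1 or more, against 919 of 13741 among all genes. On that scale 0 were at -1 or less, against 1326 of 13741. In complex IV, the complex of MT-CO1, 4 of 11 genes had a ratio of 1 or more and the median was 0.94. COX7A2, a small structural subunit, had an FPKM of 560.5 and 191.5. COX4I1, a subunit that binds regulatory nucleotides, had 746.9 and 475.2, a log2 ratio of 0.65. In complex I, 10 of 37 genes had a ratio of 1 or more, with NDUFA11 the highest at 2.46. Complex III had 1 of 9, near the share of all genes, and complex V had 3 of 15. For complex II, which has no mitochondrially encoded subunit, 0 of 4 genes reached 1, too few genes to set against 8.51%. As shares of the totals, 7 of 37 genes of complex I and 0 of 9 of complex III reached 1. On that scale complex IV had 3 of 11 and complex V had 2 of 15. The median of complex II was -0.41 for FPKM and -0.25 for shares of the totals. Over all genes the median was 0.01 for FPKM and -0.21 for shares. On the scale of shares complex II was thus near the median of all genes. SDHA, the flavoprotein subunit of complex II, was at -0.43 for FPKM, 0.21 for counts and -0.02 for shares. SDHB was at 0.45 for FPKM and 0.41 for shares, and was the only one of the 4 above 0 on these scales.

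The 42 nuclear-encoded factors of mitochondrial gene expression, 7 of them listed under DNA replication, had a lower median than the respiratory subunits on both scales. Of these 42 genes, 3 had a log2 FPKM ratio of at least 1, against 8.51% of all genes, so this share is near that of all genes. At -1 or below there were 0, against 3.27%. The median of the list was -0.07, or -0.39 as shares of the totals. Over all genes the median was 0.01, or -0.21 as shares. POLRMT, the mitochondrial RNA polymerase, had an FPKM of 79.7 under KD and 70.9 under CTRL. TFAM, which packages mitochondrial DNA and starts transcription, had 35.6 and 39.8. LRPPRC, which stabilises mitochondrial mRNAs, had 121.0 and 139.6, and its partner SLIRP had 393.9 and 476.5. For FPKM each of these 4 genes had a log2 ratio within 0.28 of 0. As shares of the totals POLRMT was at 0.65 (95% interval 0.50 to 0.80), while TFAM was at -0.50, LRPPRC at -0.29 and SLIRP at -0.50. POLRMT had 987 counts under KD and 537 under CTRL, a log2 ratio of 0.88 against 0.17 for FPKM. Counts and FPKM thus differed for this gene apart from the scaling of the columns, and why was not tested. The 3 genes past 1 were TOP1MT, a mitochondrial topoisomerase, at 1.65, ENDOG, a mitochondrial nuclease, at 1.19, and HSD17B10, a subunit of the mitochondrial tRNA-cleaving enzyme, at 1.07.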

How the data were processed

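RNA-seq libraries of K562 cells were made from 3 pools per group. The submitters' processing notes name TopHat 1.4.1, Cuffdiff 2.2.0 and hg19. The authors deposited 1 FPKM value and 1 estimated count per gene and group. How 3 libraries became 1 value is not given in the sources used here. Columns of the authors' own comparison (fold change, p-value, FDR) and of group averages were not used.

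From the deposited FPKM, log2 ratios were computed after 1 was added to each value, in genes averaging 1 or more, which understates differences of genes with low FPKM. Ratios of count shares carry exact binomial intervals. No fold is read from 3 or fewer counts in both columns. Gene names, positions and sequences came from GENCODE release 44 on GRCh37; 54800 of 57150 rows were matched, by gene ID or else by a symbol with 1 match. Each copy's exons were aligned with the mitochondrial genome of that file (16569 nt) with edlib, and windows of 100 nt were searched on both strands with up to 3 differences. The authors' mitochondrial sequence is not given in the sources used here. A symbol with several rows was taken from the row with the most counts.

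The genes named are the row of the rule, the 10 nuclear copies with the most counts, PCBP1, PCBP2, and in the other lists genes past a log2 ratio of 1 or among the 3 highest of a complex or role. MTND4LP30, MTND6P4, MTCYBP18, MTRNR2L2, MTRNR2L9, MTCO2P2, MTND3P25, MTCO1P29 and MTCO1P40 were named after their values were seen. Members and lists were chosen with earlier results of these data known. Alternatives were another pseudocount, scaling, centring, filters and removal of a trend in GC content and length. The functions were tested on simulated data. The work used matplotlib 3.10.9, pysam 0.24.0, scipy 1.17.1, pandas 2.3.3 and numpy 2.4.6 in Python 3.11.15.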

Additional observations from a re-analysis of the deposited data

How the results depend on the processing

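The log2 ratio of hsa-mir-6723 stayed above 0 with the other pseudocount, shares of counts, centring and trend removal, but not with summed FPKM. It was 0.10 for counts as shares of the column totals, where the median of all genes moved from 0.01 to -0.21, so that it lay 0.30 above that median. It was 0.31 when centred on the median of all genes and 0.41 without a trend along length and GC content. With the nuclear copies left out of the totals, it was 0.11; that setting, counts per annotated kilobase and a minimum of 100 counts were chosen after the values were seen. In the same order of settings, the median of the nuclear copies was 0.14 (totals), 0.41 (trend) and 0.15 (totals without copies). The median of the 18 copies past the filter was 0.32, and it was 0 with no filter, because most of the copies are at 0 in both columns. The median of the respiratory chain subunits was 0.17 and that of the factors of mitochondrial gene expression was -0.39 with counts divided by totals. As a share of summed FPKM, hsa-mir-6723 took 1.12% under KD and 1.16% under CTRL, so on that scale, which weights genes per length, the direction turned. Among all genes, 733 were higher by 1 or more with the trend removed, against 1169. The number lower by 1 or more was 450, and it was 791 with a pseudocount of 0.1, 1326 with counts divided by totals and 292 with an FPKM over 5 in a column, where fewer genes were counted. Of the genes past 1 in either direction, 72.2% were higher with FPKM and 40.9% with counts divided by totals. The cause of the other moves was not tested. Of 41 values under alternatives, 23 stayed within their limits, which were the counting interval or 1.5 times a count.

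No paired analysis was possible because either group has a single value for each gene. Leaving out single libraries and the results planned for mitochondrial mRNAs, rRNAs and tRNAs were not run for want of such values here.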
